A study of Mus musculus with 15 samples.

Results

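Testes given lentivirus against the M5 muscarinic acetylcholine receptor (M5) were compared with testes given the vector control virus (MNC). The comparison uses 6 of the 15 libraries of the series, 3 of M5 and 3 of MNC, and 14514 of 23510 gene IDs. Those genes had a mean of 1 or more over the 15 libraries in FPKM, which scales the fragments of a gene by gene length and by library total. Differences are M5 minus MNC on log2(FPKM + 1), which understates the change of genes with low values, and a gene was called where limma gave an adjusted p under 0.05.

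The animals were male mice of the outbred ICR stock, injected in the testis at 5 weeks of age. M5 testes received 3 shRNAs (short hairpin RNAs that direct degradation of a matching mRNA) against Chrm5, the gene of the receptor, and MNC testes received the same virus with the study's control shRNA. Both groups carried the same vector and were collected 10 days later. The other groups were shRNA virus against M1 or M3 and Con, a further control whose treatment the labels do not describe. The whole testis was sequenced, any cell the virus entered could carry the shRNA, and fewer cells of a type cannot be told apart from less RNA per cell. The labels number the libraries without naming animals, so p-values measure the spread between these libraries.

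The seminiferous epithelium holds germ cells at every step from spermatogonia through meiosis to round and elongating spermatids, supported by Sertoli cells, with Leydig cells, macrophages and vessels between the tubules. Muscarinic receptors bind acetylcholine, and M5 couples to Gq proteins, which raise calcium in the cell. The study asked which transcripts change in the testis when M5 is lowered.

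Defining germ cell transcripts were present in all 6 libraries. Prm1, which encodes the protamine that packs sperm DNA, was at 6019 to 9026 FPKM in M5 and 5636 to 7699 FPKM in MNC. Insl3, the Leydig cell hormone gene, was at 1117 to 2382 FPKM in M5. Absolute depth cannot be read from FPKM, and relative depth between libraries, read from the steps between low values of 5 to 13 genes, was 0.935 to 1.04.

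Chrm5 (chr2:112478733-112536361, mouse build GRCm38.p6) was low in both groups. The M5 libraries had 0.37, 0.22 and 0.37 FPKM, the MNC libraries 0.43, 0.23 and 0.43 FPKM. The groups overlapped (log2 difference -0.05, two-sided exact permutation test, p = 0.5, where 3 against 3 libraries allow no p below 0.1), so a lower level of the targeted transcript was not detectable and the transcript does not check the labels.

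3 libraries stood apart. M5 replicate 3 had a median level over the genes tested of 3.449 on the log2 scale, against 3.242 and 3.252 in the other M5 libraries, and held higher levels of Leydig, Sertoli, matrix, macrophage and interferon genes. MNC replicate 1 lay 0.55 above the MNC mean in lymphocyte genes and 0.86 above it in genes of the major histocompatibility complex (MHC) class II. M3 replicate 3, which is in neither group, lay at 0.83 on a scale over the called genes that runs from 0 at the MNC mean to 1 at the M5 mean, while the other M1, M3 and Con libraries lay at 0.11 to 0.22. Whether its label is right was not tested.

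**Figure D1:**
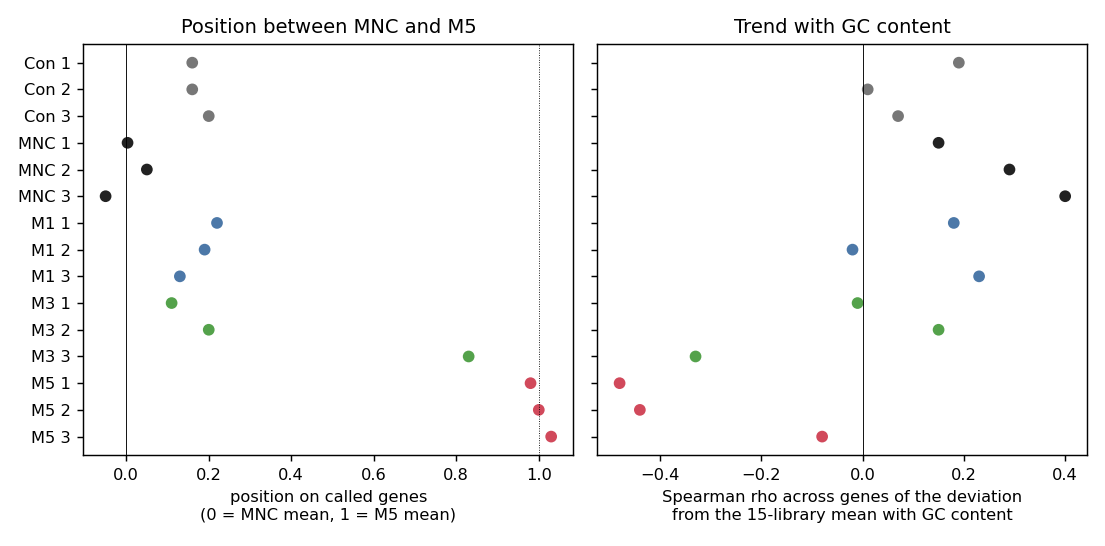
Position of each of the 15 libraries over the called genes (left, 0 is the MNC mean and 1 the M5 mean) and the Spearman rho, across genes, of each library's deviation from the 15-library mean with transcript GC content (right). Points are libraries coloured by group. M3 replicate 3 lies at 0.83 on the left and at -0.33 on the right. On the right M5 replicates 1 and 2 lie at -0.48 and -0.44 while M5 replicate 3 lies at -0.08. MNC replicates 1 to 3 lie there at 0.15, 0.29 and 0.40, and the remaining libraries at -0.02 to 0.23.

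The test called 820 of the 14514 genes (5.65%). M5 was higher in 400 of them (2.76%) and lower in 420 (2.89%). Most differences were small. The median size among called genes was 0.46 on the log2 scale, 490 were under 0.5 and 97 were at 1 or more. All 820 had M5 and MNC values that did not overlap, against 16.6% of all genes with every M5 value above every MNC value and 15.5% with every M5 value below. Dropping an MNC library left 362 (replicate 1), 92 (replicate 2) or 60 (replicate 3) calls, and dropping an M5 library left 85 (replicate 1), 35 (replicate 2) or 946 (replicate 3).

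Direction followed base composition. Genes higher in M5 had a median transcript GC content of 43.5%, genes lower in M5 56%, and all tested genes 49.4%, with GC known for 92.1% of the genes tested, 86.8% of the higher and 89.3% of the lower genes. In the fifth of genes with the lowest GC, 174 were called higher and 7 lower. In the fifth with the highest GC, 12 were called higher and 219 lower. Across 13365 genes, which share libraries and are not independent, Spearman's rho between GC and the difference was -0.452. With the GC trend removed from each library, 104 genes were called, 71 higher (0.531%) and 33 lower (0.247%). Of the 113 called genes named here, 108 had known GC, and 33 of these were still called after this removal. Values after it are given beside some of the results below. A call given without such a value need not have held after the removal. The part of GC content in the results was not tested further.

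**Figure D2:**
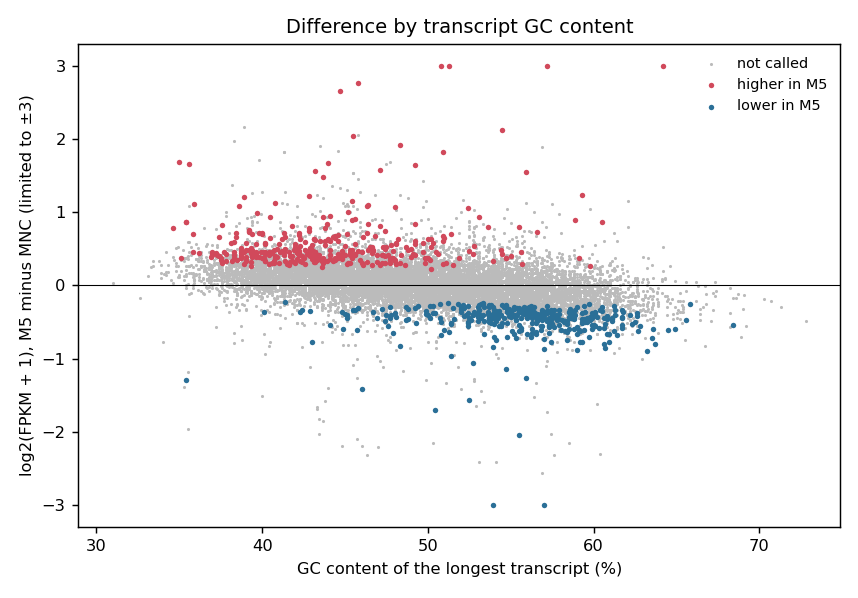
Difference between M5 and MNC on log2(FPKM + 1), limited to ±3, against the GC content of the longest transcript for 13365 genes. Red points were called higher in M5, blue points lower and grey points were not called. The red points lie mostly at low GC (median 43.5%) and the blue points at high GC (median 56%).

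Genes called higher were also shorter, with a median transcript of 2234 bases against 3034 bases for genes called lower and 3158 bases over all genes. Both sets were more abundant than the rest, with median levels of 25.9 FPKM for higher and 38 FPKM for lower genes against 8.84 FPKM over all. The scale understates changes of genes with low values, so the test itself favours abundant genes. This need not be a property of the genes that changed. By chromosome, 19 (3.11%) of 610 genes on the X were called higher and 1 (0.164%) lower, against 2.76% and 2.89% over all genes. Chromosome 13 held 18 (3.66%) and 1 (0.203%) of 492, and the Y 12 (11.8%) and 3 (2.94%) of 102. The higher shares of the X and chromosome 13 were thus near that over all genes, and their lower shares were below it. Chromosome 12 held 25 (5.45%) called higher and 8 (1.74%) lower of 459. Chromosome 17 held 8 (1.18%) called higher and 31 (4.57%) lower of 678. Chromosome 7 held 19 (1.8%) and 43 (4.08%) of 1053, and chromosome 15 held 14 (2.65%) and 27 (5.11%) of 528. The median GC of tested genes was 44% on the X, 46.2% on chromosome 13, 43.4% on the Y and 47.2% on chromosome 12. It was 52.2% on chromosome 17, 52.4% on chromosome 7 and 52.7% on chromosome 15.

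52 lists of genes by function or cell type had tested members. Cytosolic ribosomal proteins, splicing factors, proteasome subunits, heat shock proteins and red blood cell genes had more members called higher than the 2.76% of all genes, while elongating spermatid, axoneme and sperm energy genes had more members called lower than the 2.89% of all genes. Most lists of somatic cells and of junctions had no member called, against 5.65% of all genes. Lists of their size hold few called genes at that share. The share called also differed with level. Of the 2903 genes with a mean of 35.4 to 6580 FPKM, 5.58% were called higher and 7.68% lower. Of the 2903 genes with a mean of 1 to 2.58 FPKM, 1.17% were called higher and 0.517% lower. The shares over all genes, given here and below, are thus not matched to the level of a list. Shares matched for level were not taken.

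**Figure D3:**
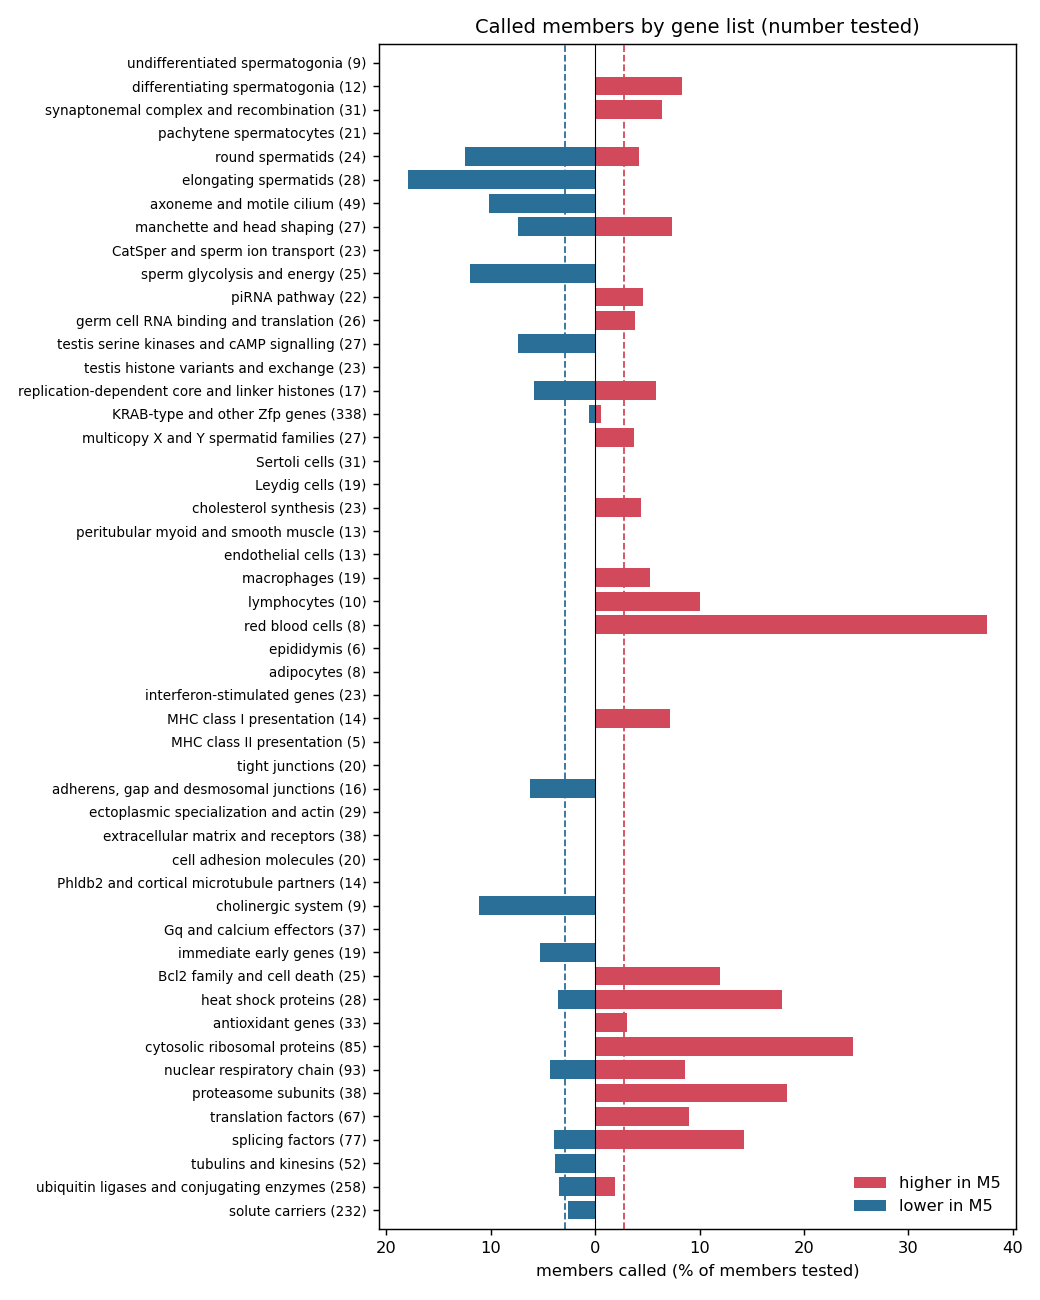
Share of the tested members of each list called higher in M5 (red, to the right) and lower in M5 (blue, to the left), in percent, with the number tested in brackets. Dashed lines mark the shares over all genes tested, 2.76% higher and 2.89% lower. Red blood cell genes (37.5%) and cytosolic ribosomal proteins (24.7%) reach farthest right, elongating spermatid genes (17.9%) farthest left.

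Cytosolic ribosomal proteins build the particle that translates mRNA. Of 85 tested, 21 (24.7%) were called higher and 0 lower, with a median difference of 0.16 against 0.03 over all genes. After removal of the GC trend, 14 of 85 were still called higher and 0 lower, with a median of 0.20, and the median GC content of the list was 50.9%. Leaving out single libraries left 3 to 21 members called. Many of these genes have near-identical processed copies, and how reads of such copies were assigned is not given in the sources used here, so single values are uncertain.

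Rps13, a protein of the small subunit (chr7:116331507-116334190), rose most. The M5 libraries held 103, 99.1 and 87.1 FPKM, the MNC libraries 13.6, 13 and 16.7 FPKM (log2 difference 2.66, SE 0.111, limma adjusted p = 0.000416). Con and M1 libraries were at 13.2 to 23 FPKM, and M3 replicates 1 to 3 at 13.2, 12.7 and 81.8 FPKM. The 3 M5 libraries and M3 replicate 3 thus lay far above the other 11.

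Rps15a, also of the small subunit, was at 34.2, 34 and 34.8 FPKM in M5 against 18.3, 17.4 and 18.2 FPKM in MNC (0.90, SE 0.0571, limma adjusted p = 0.00223). Rpl29, of the large subunit, was at 12.1, 12.9 and 10.6 FPKM against 6.01, 5.97 and 6.02 FPKM (0.87, adjusted p = 0.0126). In both, M5 lay at nearly double the MNC level with no overlap. Rps6, whose protein is a target of growth signalling kinases, was at 4.89, 5.14 and 3.65 FPKM in M5 and 1.76, 2.73 and 1.56 FPKM in MNC (0.89, adjusted p = 0.0471), while Con was at 4.42 to 4.88 FPKM, inside the range of M5. Rpl41, the most abundant member, was at 991, 976 and 981 FPKM in M5 and 737, 748 and 782 FPKM in MNC (0.38, adjusted p = 0.0229). The remaining 16 called members rose by 0.30 to 0.84.

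Factors that start, extend and end translation rose in part. Of 67 tested, 6 (8.96%) were called higher and 0 lower. Eif3e, a subunit of the complex that brings mRNA to the small subunit, was at 169, 153 and 145 FPKM in M5 and 118, 114 and 111 FPKM in MNC (0.44, adjusted p = 0.0286). Eif2s1, Eif1a and Eif5b, which act in the same step, rose by 0.38, 0.37 and 0.34. Eef1a1, the most abundant factor, was at 1306, 1292 and 1349 FPKM in M5 and 1384, 1282 and 1297 FPKM in MNC (adjusted p = 0.969). None of the 67 was called once the GC trend was removed, and 0 to 6 were called without single libraries.

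Splicing factors cut introns from new transcripts. Of 77 tested, 11 (14.3%) were called higher and 3 (3.9%) lower, with a median of 0.13 and a median GC content of 45.9%. Snrpf, a protein of the ring that binds spliceosomal RNAs, was at 52.3, 50.4 and 54.4 FPKM in M5 and 31.7, 31.9 and 31.3 FPKM in MNC (0.71, SE 0.055, adjusted p = 0.004). The other ring proteins Snrpd1 and Snrpe rose by 0.64 and 0.57, and Hnrnpc, which binds new transcripts, by 0.51. The 3 lower members were Srsf4 at -0.41, Sf3b4 at -0.35 and Snrpc at -0.31. Removing the GC trend left 2 of 77 called higher and 0 lower, and without single libraries 1 to 12 were called.

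Polr2k (chr15:36174010-36177012) encodes a small subunit shared by the 3 nuclear RNA polymerases. It was at 42.4, 43.4 and 49.2 FPKM in M5 and 19.2, 17.5 and 19.6 FPKM in MNC (1.21, SE 0.0823, limma adjusted p = 0.00282). M3 replicate 3 was at 46.1 FPKM and the Con and M1 libraries at 19.1 to 25.1 FPKM. The gene was called in all 17 alternative fits, as were H2ac23, Rps13, Fabp3 and Tmem89.

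The proteasome degrades proteins tagged with ubiquitin. Of 38 subunits tested, 7 (18.4%) were called higher and 0 lower, with a median of 0.17. Psma4, of the catalytic core, was at 80.6, 79.6 and 81.9 FPKM in M5 and 60.3, 54 and 51.6 FPKM in MNC (0.54, adjusted p = 0.0179). Psmd12, Psmd14 and Psmc6, of the regulatory cap, rose by 0.47, 0.45 and 0.43. Psma6, the most abundant subunit, was at 398, 396 and 373 FPKM in M5 and 425, 415 and 394 FPKM in MNC, with a difference of -0.08 (adjusted p = 0.439). Psma4 and Psmd12 were still called after the GC trend was removed, whereas 0 of 38 were called after each library was centred on its median and 0 to 5 without single libraries. Ubiquitin ligases and conjugating enzymes, which place the tag, had 5 of 258 called higher (1.94%) and 9 lower (3.49%), close to the shares over all genes. Ube2e1, Ube2v2 and Ube2n, which conjugate ubiquitin, rose by 0.50, 0.37 and 0.33, and the ligase Rnf34 by 0.33, whereas the ligases Trim46, Trim39, Rnf44 and Rnf126 fell (-0.89, -0.68, -0.65 and -0.62).

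Heat shock proteins help other proteins fold. Of 28 tested, 5 (17.9%) were called higher and 1 lower. Hsp90b1, the chaperone of the endoplasmic reticulum, was at 284, 294 and 310 FPKM in M5 and 223, 210 and 200 FPKM in MNC (0.49, adjusted p = 0.0181). Con lay at 278 to 295 FPKM, overlapping M5. Dnaja1, Hsp90aa1 and the mitochondrial Hspa9 rose by 0.47, 0.38 and 0.35. The lower member was Hspb9, a small heat shock protein of spermatids, at 555, 555 and 516 FPKM in M5 against 759, 711 and 714 FPKM in MNC (-0.43, adjusted p = 0.0218). After GC removal 0 of 28 were called, and without single libraries 0 to 8.

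The nuclear genes of the respiratory chain moved both ways. Of 93 tested, 8 (8.6%) were called higher and 4 (4.3%) lower. Ndufa3 of complex I was at 63.5, 61.3 and 63.9 FPKM in M5 and 32.2, 25.8 and 31.6 FPKM in MNC (1.06, SE 0.0917, adjusted p = 0.00634). Cox6c of cytochrome oxidase was at 255, 244 and 251 FPKM against 160, 159 and 152 FPKM (0.67, SE 0.0501, adjusted p = 0.00354). Ndufc1, also of complex I, went the other way, at 164, 159 and 160 FPKM in M5 and 241, 233 and 231 FPKM in MNC (-0.54, SE 0.0482, adjusted p = 0.00647). M3 replicate 3 was at 51.7, 247 and 149 FPKM for these 3 genes, nearer to M5 than to MNC in each. Cox5b and Uqcrb rose by 0.50 and 0.45, and Ndufaf3, Ndufa8 and Ndufa7 fell (-0.44, -0.40 and -0.28). Ndufa3, Cox6c and Ndufc1 were still called with the GC trend removed, and 2 to 13 of the list without single libraries.

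Cytochrome c carries electrons in this chain and triggers apoptosis when released. Its somatic gene Cycs was at 18.4, 17.7 and 24.1 FPKM in M5 and 9.58, 8.54 and 7.57 FPKM in MNC (1.13, adjusted p = 0.0166), and its testis gene Cyct at 118, 109 and 108 FPKM against 77.7, 73.7 and 78.6 FPKM (0.54, adjusted p = 0.0131). Both were counted in the list of Bcl2 family and cell death genes, where 3 of 25 (12%) were called higher and 0 lower. The other was Birc2, an inhibitor of apoptosis (0.32, adjusted p = 0.0414), which at 31.4 to 33.4 FPKM in M5 lay below its 34.4 to 36.4 FPKM in Con. None of the 3 is a Bcl2 protein itself.

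The promoters of called genes were searched for 7 motifs on both strands, in the 250 bases before the RefSeq gene start. 70.2% of the higher and 74% of the lower genes had a promoter in the RefSeq set. ETS factors bind CCGGAAG, which 18.9% of the higher and 13.2% of the lower genes held, against 13.2% of the genes tested and 7.05% of all promoters. Among ribosomal protein genes 29.7% held it, among splicing factors 27.7% and among proteasome subunits 25.8%. Elongating spermatid genes held it in 0 of 24 promoters. 3 genes called higher are shown to place the motif, with the 110 bases before the start in build GRCm38.p6 and the ETS motif or its reverse complement in capitals. Rps6 is on chr4:86857368-86857477 (minus strand), Rps21 on chr2:180257269-180257378 (plus strand) and Psmd12 on chr11:107479418-107479527 (plus strand).
Rps6: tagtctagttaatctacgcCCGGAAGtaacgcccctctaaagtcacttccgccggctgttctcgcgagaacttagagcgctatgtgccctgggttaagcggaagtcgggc
Rps21: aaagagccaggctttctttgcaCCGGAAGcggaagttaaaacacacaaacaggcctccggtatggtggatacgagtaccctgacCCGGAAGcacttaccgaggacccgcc
Psmd12: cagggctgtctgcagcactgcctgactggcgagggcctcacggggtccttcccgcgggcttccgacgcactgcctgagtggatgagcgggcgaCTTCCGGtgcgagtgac

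RFX factors, which act on genes of cilia and spermatids, bind sites built on GTTGCC. The motif was in 16.7% of the lower and 14.6% of the higher genes, against 11.8% of the genes tested and 10.5% of all promoters. Axoneme genes held it in 32.6% and elongating spermatid genes in 16.7% of promoters. 3 genes called lower are shown in the same way, with GTTGCC in capitals. Odf3 is on chr7:140847806-140847915 (plus strand), Ropn1l on chr15:31453690-31453799 (minus strand) and Pgam2 on chr11:5803797-5803906 (minus strand).
Odf3: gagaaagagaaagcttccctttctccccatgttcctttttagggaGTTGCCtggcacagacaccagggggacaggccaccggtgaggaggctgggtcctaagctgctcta
Ropn1l: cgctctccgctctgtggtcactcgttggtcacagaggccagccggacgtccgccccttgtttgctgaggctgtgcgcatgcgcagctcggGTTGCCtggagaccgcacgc
Pgam2: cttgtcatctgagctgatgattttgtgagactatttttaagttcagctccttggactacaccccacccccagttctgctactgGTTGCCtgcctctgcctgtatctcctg

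CCAAT was in 37% of the higher and 37.9% of the lower genes, against 36.8% of the genes tested and 34.5% of all promoters. The GC box GGGCGG was in 49.5% and 52.7% (54.6% of the genes tested, 32.9% of all promoters), and TATAAA in 7.83% and 6.75% (6.7% and 13%). The heat shock pair GAANNTTC was in 4.98% and 6.75% (5.4% and 6.78%), and the cAMP response element TGACGTCA in 3.2% and 2.25% (2.71% and 1.62%). A match is a string of letters in a window, and binding was not measured.

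Elongating spermatids build the sperm tail and pack the nucleus. Of 28 genes tested, 5 (17.9%) were called lower and 0 higher, with a median of -0.17. Odf1, a main protein of the dense fibres along the tail (chr15:38219203-38226735), was at 939, 1029 and 847 FPKM in M5 and 1265, 1392 and 1330 FPKM in MNC (-0.51, SE 0.0891, limma adjusted p = 0.0337). Odf3, another tail gene, was at 107, 105 and 117 FPKM against 160, 173 and 168 FPKM (-0.61, adjusted p = 0.012). Spata3 was at 367, 417 and 313 FPKM against 519, 577 and 580 FPKM (-0.62, adjusted p = 0.0355). No M5 value reached the lowest MNC value in these genes.

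The transcripts of Prm1 and Tnp1, whose proteins pack sperm DNA, did not follow. Prm1 was at 7981, 9026 and 6019 FPKM in M5 and 5636, 7258 and 7699 FPKM in MNC (0.15, adjusted p = 0.664), and Tnp1, a transition protein that precedes protamine, at 4322, 4813 and 3374 FPKM against 3256, 3795 and 4014 FPKM (0.17, adjusted p = 0.553). The groups overlapped for both. These values are RNA, while the study reported less TP1, the protein of Tnp1, in shM5 testes. In Con, Odf1 was at 545 to 861 FPKM and Spata3 at 221 to 339 FPKM, both overlapping M5, while Odf3 was at 133 to 145 FPKM, above M5. Against Con the elongating spermatid list had a median of 0.42, with 8 of 28 called higher in M5 and 1 lower (9.32% and 12.3% over all genes), so the direction of this list depended on which control was used. With the GC trend removed, 1 of 28 was called lower against MNC. Leaving out single libraries left 0 to 8 called, and without M5 replicate 3 there were 3 called higher and 5 lower (over all genes 3.26% in each direction).

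The axoneme is the microtubule core of the tail. Of 49 genes tested, 5 (10.2%) were called lower and 0 higher, with a median of -0.04. Cfap65 was at 48, 53.1 and 46 FPKM in M5 and 62.7, 67.4 and 71.6 FPKM in MNC (-0.45, adjusted p = 0.0335). Dnah17, a heavy chain of the outer dynein arm, was at 38.9, 37.1 and 32.8 FPKM against 46.6, 47 and 50.4 FPKM (-0.40, adjusted p = 0.0424). Ropn1l, a protein of the fibrous sheath and radial spoke region, was at 862, 872 and 799 FPKM against 1041, 1094 and 1142 FPKM (-0.37, adjusted p = 0.0363), and Tekt5, a filament protein inside the microtubules, fell by 0.36. For all 4, every M5 value was also below every Con value. With the GC trend removed 0 of 49 were called, and without single libraries 0 to 5.

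Genes of sperm energy supply had 3 of 25 (12%) called lower and 0 higher, with a median of -0.22. Fabp3 (chr4:130308738-130315463) encodes a fatty acid binding protein of muscle. It was at 0.84 FPKM in M5 replicate 1 and listed at 0 in the other M5 libraries, while MNC was at 69, 46.5 and 53 FPKM (limma adjusted p = 0.000855). Con, M1 and the first 2 M3 libraries were at 22.4 to 72.6 FPKM and M3 replicate 3 was listed at 0. Pgam2, a glycolytic enzyme, was at 557, 580 and 521 FPKM in M5 and 679, 694 and 773 FPKM in MNC (-0.37, adjusted p = 0.0444), and Aldoart2, a sperm aldolase, at 195, 201 and 190 FPKM against 229, 235 and 236 FPKM (-0.26, adjusted p = 0.04). Ldhc, the sperm lactate dehydrogenase and the most abundant member, was at 2188, 2263 and 1959 FPKM against 2719, 2704 and 2859 FPKM without overlap, but missed the threshold (-0.37, adjusted p = 0.0522). After GC removal 1 member was called. Without M5 replicate 3, 4 members were called higher and 4 lower (over all genes 3.26% in each direction), with a median of -0.12.

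Round spermatid genes had 1 of 24 called higher (4.17%) and 3 lower (12.5%), with a median of 0.01. Over all genes the shares were 2.76% and 2.89%. With the GC trend removed, 1 of 24 was called lower and 0 higher. Acr, the protease proacrosin of the acrosome, was at 133, 132 and 125 FPKM in M5 and 159, 155 and 158 FPKM in MNC (-0.27, adjusted p = 0.0363). Actl9, an actin-like protein of the sperm head, was at 199, 204 and 188 FPKM against 251, 261 and 271 FPKM (-0.40, adjusted p = 0.0218), and Pick1, which acts in acrosome formation, fell by 0.30. For Actl9, Con was at 164 to 210 FPKM, overlapping M5. Spaca7, of the acrosome, rose by 0.30. Of 27 genes of the manchette, the microtubule skirt that shapes the head, 2 were called higher and 2 lower (7.41% each). With the GC trend removed, 0 of 27 were called. Meig1 was at 2310, 2416 and 1931 FPKM against 1328, 1414 and 1442 FPKM (0.66, adjusted p = 0.025) and Ift20 rose by 0.57, while the motor Kif17 fell by 0.36.

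Of 31 synaptonemal complex and recombination genes, 2 (6.45%) were called higher and 0 lower, against 2.76% and 2.89% over all genes. Every M5 value lay above every MNC value in 9 of them and below in 4 (16.6% and 15.5% over all genes). Their median was 0.09 against 0.03 over all genes, and -0.01 with the GC trend removed. Sycp1, the crossbar of the complex that joins paired chromosomes (chr3:102818499-102936100), was at 78.4, 78.2 and 84.7 FPKM in M5 and 46.3, 51.2 and 41.7 FPKM in MNC (0.79, SE 0.0851, adjusted p = 0.0125). Hormad1, which marks unpaired axes, was at 102, 91.3 and 95 FPKM against 60.8, 58.2 and 57.9 FPKM (0.70, SE 0.0608, adjusted p = 0.00634). Both have low GC (34.6% and 35.8%), and both were still called with the GC trend removed. Con lay between the groups, at 58.5 to 74.9 FPKM for Sycp1 and 77.1 to 84.1 FPKM for Hormad1. Syce1, the most abundant member, differed by 0.17 (adjusted p = 0.168).

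Earlier germ cells were represented by 9 genes of undifferentiated spermatogonia, with 0 called, and by 12 genes of differentiating spermatogonia, with 1 called higher. That gene was Dazl, an RNA-binding protein of germ cells, at 62.5, 57 and 68.6 FPKM in M5 and 47.7, 46.8 and 41.5 FPKM in MNC (0.46, adjusted p = 0.0411). Con was at 58.4 to 71.2 FPKM, overlapping M5. Id4, a stem cell marker, was at 23.7, 24.3 and 26.3 FPKM in M5 and 23.5, 22.7 and 25.7 FPKM in MNC. Of 21 pachytene spermatocyte genes 0 were called, of 22 piRNA pathway genes 1 (Rnf17, 0.29 higher), and of 23 genes of CatSper and sperm ion transport 0.

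**Figure D4:**
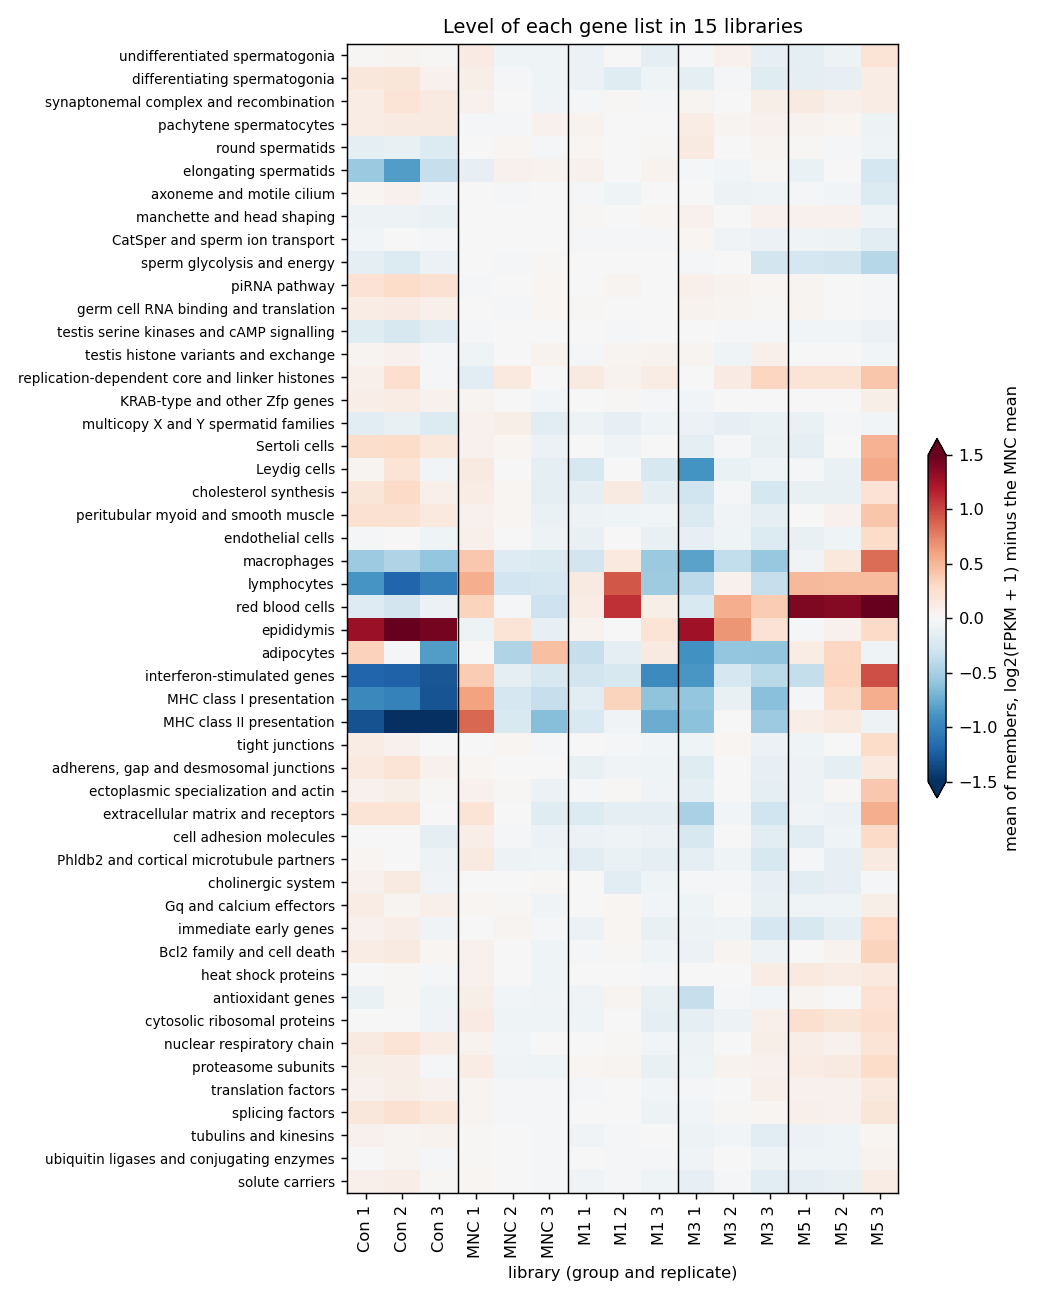
Mean over list members of log2(FPKM + 1) minus the MNC mean, for each gene list (rows) in the 15 libraries (columns, grouped as Con, MNC, M1, M3 and M5), red above and blue below the MNC mean, with colours limited to ±1.5. Red blood cell genes are red in all 3 M5 libraries (1.40, 1.38 and 2.09), ribosomal proteins are slightly red in all 3 (0.24, 0.18 and 0.25), and Sertoli and Leydig genes are red in M5 replicate 3 (0.52 and 0.57) but not in the other M5 libraries.

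Histone genes moved in both directions. H2ac23 (chr13:21810367-21810918), a histone H2A gene, was at 20.8, 22.6 and 28.7 FPKM in M5 and listed at 0 in MNC, Con, M1 and M3 replicates 1 and 2. M3 replicate 3 was at 19.1 FPKM. H2ac18, another H2A gene, was at 172, 144 and 189 FPKM in M5 and 260, 305 and 316 FPKM in MNC (-0.80, adjusted p = 0.0239). H2al1b, an H2A variant of spermatids, was at 7.64, 5.98 and 11.7 FPKM against 18.7, 27.6 and 33.7 FPKM (-1.56, adjusted p = 0.0345). Histone genes come in near-identical copies among which reads can be split, so these values are uncertain. Of the 17 replication-dependent histones tested, H2ac23 and H2ac18 were the ones called.

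A few further genes were present in 1 group and near 0 in the other. Tmem89 (chr9:108914619-108915563), which encodes a membrane protein, was listed at 0 in all 3 M5 libraries and in M3 replicate 3, while MNC was at 40.7, 45.7 and 33.7 FPKM and the remaining 8 libraries at 26.4 to 47.5 FPKM. Gstp2, a glutathione transferase of detoxification, was at 8.07, 6.7 and 8.71 FPKM in M5 and 1.16, 1.16 and 0.73 FPKM in MNC (2.13, SE 0.146, adjusted p = 0.00286), with 7.35 FPKM in M3 replicate 3. Its sequence is close to that of Gstp1, so reads may be shared. It was the 1 gene called of 33 antioxidant genes. H2-T10, an MHC class I relative, was at 2.17, 2.39 and 3.49 FPKM in M5 and listed at 0 in MNC, and Tmem254c was at 2.74, 3.7 and 3 FPKM against 0.16, 0.23 and 0.13 FPKM (1.82, adjusted p = 0.00289). For both, some M1 and M3 libraries lay within or above the range of M5. H2-T10 was at 1.35, 0.32 and 0.69 FPKM in Con, 1.8, 3.31 and 0.24 FPKM in M1 and 0.19, 3.8 and 3.28 FPKM in M3. Tmem254c was at 3.53, 4.51 and 0 FPKM in Con (limma adjusted p = 0.603 for M5 against Con), 3.09, 2.39 and 0.27 FPKM in M1 and 1.56, 1.82 and 4.68 FPKM in M3. Both also belong to families of close copies.

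Ranbp1, a cofactor of nuclear transport, was at 27.1, 26.3 and 47.3 FPKM in M5 and 7.88, 6.85 and 8.75 FPKM in MNC (1.92, adjusted p = 0.0153). Tmsb15a, a thymosin that binds actin monomers, was at 74.5, 76.5 and 62.5 FPKM against 16.7, 26.7 and 27.6 FPKM (1.58, adjusted p = 0.0165). Tac1, the precursor of substance P, was at 5.94, 6.5 and 6.2 FPKM against 1.86, 2.9 and 1.64 FPKM (1.22, adjusted p = 0.0181). M3 replicate 3 was at 29.3, 87.5 and 6.35 FPKM for these 3, inside or above the range of M5.

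Among the largest decreases, Tedc1, of a complex that builds centriole microtubules, was at 1.66, 0.84 and 3.7 FPKM in M5 and 8.49, 12 and 12.2 FPKM in MNC (-2.05, adjusted p = 0.0303). M1 libraries were also low, at 1.44, 3.47 and 6.4 FPKM. Rpl37rt, a retrogene of a ribosomal protein, was at 0.77, 0.2 and 0.21 FPKM against 2.91, 3.39 and 4.24 FPKM (-1.71, adjusted p = 0.0149). Cenpm, of the centromere, and Ppp1r10, a nuclear phosphatase subunit, fell (-1.26 and -1.14). Ttll1, which adds glutamate to tubulin in sperm tails, was at 14.9, 14.2 and 9.26 FPKM against 29.3, 24.4 and 28.5 FPKM (-1.06, adjusted p = 0.0311). Pheta2, Fev and Gpr3 fell as well (-0.97, -0.90 and -0.84).

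**Figure D5:**
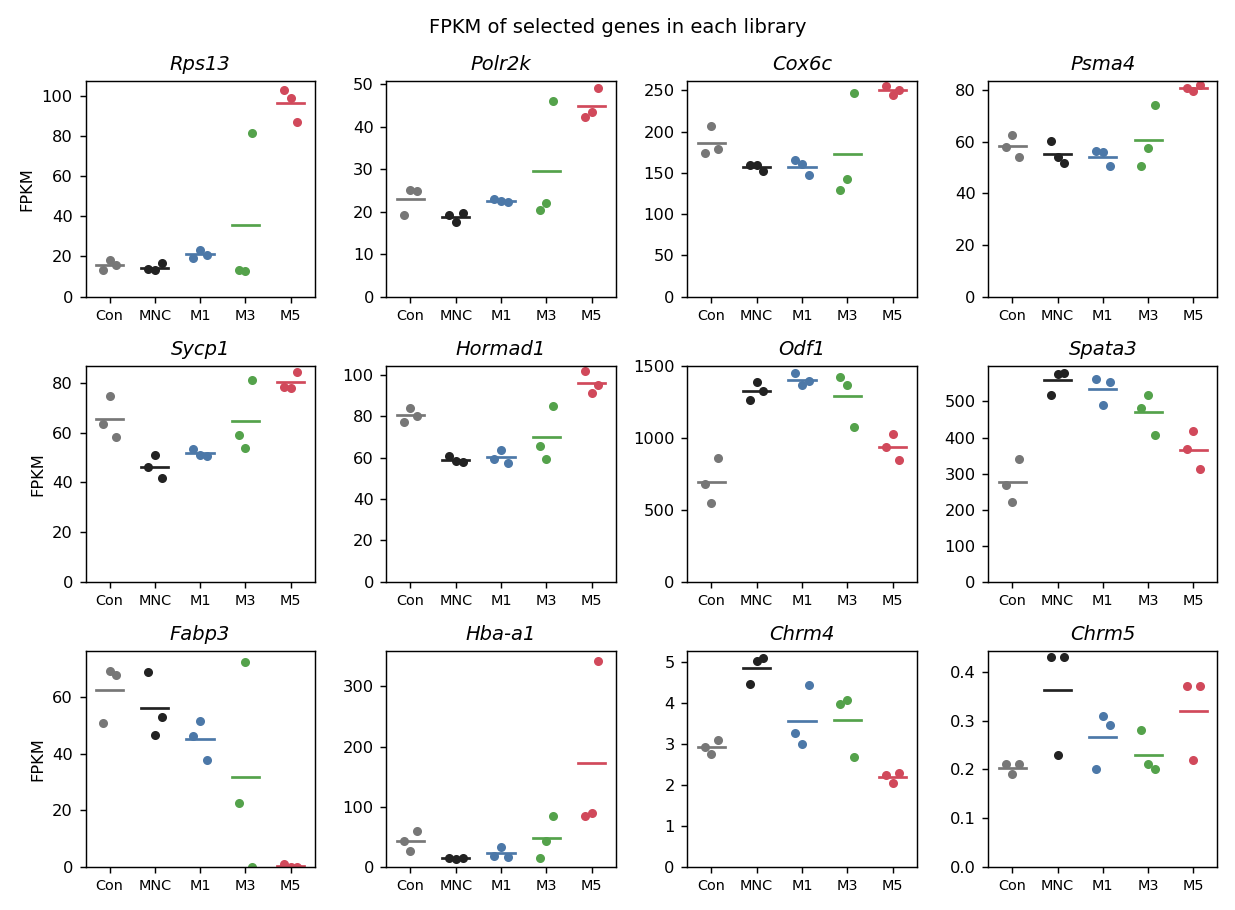
FPKM of 12 genes in each library, by group (Con, MNC, M1, M3, M5; points are libraries, bars are group means, each axis starts at 0). In M3 the library near the M5 level is replicate 3, as for Rps13 (81.8 FPKM) and Fabp3 (listed at 0), while Chrm5 stays at or below 0.43 FPKM in every library.

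Globin genes rose among the red blood cell genes. Of 8 tested, 3 (37.5%) were called higher and 0 lower, and 6 of 8 had every M5 value above every MNC value. Hba-a1, the alpha chain of haemoglobin, was at 84.6, 90.2 and 342 FPKM in M5 and 14.9, 13.8 and 14.5 FPKM in MNC (3.17, SE 0.511, adjusted p = 0.0286). Con was at 43.1, 26.6 and 60 FPKM, between the groups, and M3 replicate 3 at 84.3 FPKM. Hbb-bs, a beta chain, was at 58.6, 35.7 and 106 FPKM against 10.2, 1.53 and 0.49 FPKM (4.14, adjusted p = 0.0366), and Hbb-bt, its close copy, at 11.7, 6.22 and 18.4 FPKM against 1.66, 0.2 and 0 FPKM (3.04, adjusted p = 0.0262). For Hbb-bs and Hbb-bt, Con was at or below 0.09 FPKM, and M3 replicate 3 was at 1.54 and 0 FPKM. The alpha and beta chains thus did not move together in Con and M3 replicate 3. Reads may be shared between close copies, so single values are uncertain. Hba-a1 and Hbb-bs were called in 9 and 7 of 17 alternative fits, and Hbb-bt in 11 of the 16 that held it. Leaving out single libraries left 0 to 3 of the 8 genes called. The summed level of the list was 205 to 542 FPKM in M5 and 71 to 84.5 FPKM in MNC. Of the 12 genes of the list in the table, 8 were tested, and 7 of these had a positive difference. The membrane genes Slc4a1, Epb42 and Rhag, which mark the same cells, were at or below 0.09 FPKM in all 6 libraries, too low to compare. The share of blood in the tissue was not tested.

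The macrophage, lymphocyte and MHC class I lists each had 1 member called higher and 0 lower. These were 5.26%, 10% and 7.14% of their members, against 2.76% over all genes. Among 19 macrophage genes, 17 had a positive difference (median 0.23) and 1 was called higher, Fcgr3, an antibody receptor, at 26.8, 34.9 and 36.2 FPKM in M5 and 16.6, 19.8 and 16.7 FPKM in MNC (0.84, adjusted p = 0.0262). The mean of the list relative to MNC was -0.05, 0.16 and 0.84 in M5 replicates 1 to 3, and 0.41 in MNC replicate 1. Aif1, the most abundant member, differed by 0.03, and testis germ cells also express this gene. Among 10 lymphocyte genes 1 was called, Gzma, a protease of killer cells, at 2.77, 3.37 and 3.39 FPKM against 1.91, 0.92 and 0.79 FPKM (0.95, adjusted p = 0.0492). Of the 10, 9 had a positive difference, with a median of 0.53. The lymphocyte mean relative to MNC was 0.49, 0.48 and 0.48 in the M5 libraries and 0.55, -0.29 and -0.25 in the MNC libraries, so that MNC replicate 1 lay above all M5 libraries. H2-D1 was the 1 gene called of 14 for MHC class I presentation. It presents peptides to T cells and was at 81.9, 124 and 130 FPKM in M5, 39.5, 38.9 and 32.4 FPKM in MNC and 13.5 to 15.1 FPKM in Con (1.55, adjusted p = 0.0153). Il4i1, an amino acid oxidase of immune cells, and S100a4, a calcium binding protein of leukocytes and fibroblasts, rose by 1.24 and 1.65.

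Interferon-stimulated genes, which cells express on sensing virus, had 0 of 23 called (5.65% over all genes). Their mean relative to MNC was -0.36, 0.32 and 0.97 in the M5 libraries, so the replicates differed by more than the groups. Iigp1, the most abundant, was at 12.8, 26.2 and 66.9 FPKM in M5 and 19.1, 12.2 and 12.9 FPKM in MNC. Against Con, 19 of the 23 were called higher in M5 and 0 lower, with a median of 1.31 (9.32% and 12.3% over all genes). Con lay 1.19 to 1.28 below MNC on this list. Of 5 MHC class II genes 0 were called.

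No marker of 31 for Sertoli, 19 for Leydig, 13 for peritubular myoid and 13 for endothelial cells was called, and 0 of 38 matrix and matrix receptor genes. The share called over all genes was 5.65%. The Sertoli summed level was 1319, 1394 and 2089 FPKM in M5 and 1274 to 1479 FPKM in MNC, and the Leydig level 2081, 1833 and 3636 FPKM against 1879 to 2341 FPKM. Without M5 replicate 3 the Sertoli median moved from 0.06 to -0.11, with 1 of 31 called lower (over all genes 3.26% in each direction). Insl3 was at 1275, 1117 and 2382 FPKM in M5 and 1519, 1470 and 1224 FPKM in MNC, and Clu, the most abundant Sertoli list member, at 293, 331 and 552 FPKM against 430, 427 and 373 FPKM. In both genes M5 replicate 3 lay above all MNC libraries and M5 replicates 1 and 2 did not. Sqle, an enzyme of cholesterol synthesis, was the 1 gene called of 23 (0.28, adjusted p = 0.0464). Epididymis genes (6) and adipocyte genes (8) had 0 called.

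Junctions between Sertoli cells close the adluminal compartment, and the study assayed several of their proteins. Of 20 tight junction genes, 29 genes of the ectoplasmic specialization and its actin, and 20 cell adhesion molecules, 0 were called. Over all genes 5.65% were called, a share at which lists of this size hold few called genes. Cldn11, the claudin of Sertoli tight junctions, was at 41.8, 48.6 and 73.5 FPKM in M5 and 42.4, 43.4 and 41.3 FPKM in MNC (0.32, adjusted p = 0.359). Ocln, F11r, Gja1, Gja4, Tjp1 and Ctnnd1, the genes of occludin, JAM-A, connexins 43 and 37, ZO-1 and p120 catenin, differed by 0.02, 0.14, 0.04, 0.19, 0.16 and -0.12, all with adjusted p of 0.298 or more. Cdh1, the gene of E-cadherin, was at 0.24 to 0.47 FPKM, under the filter. Jup, which encodes plakoglobin of desmosomes, was the 1 gene called of 16 adherens, gap and desmosomal genes, at 15.1, 14.8 and 17.6 FPKM in M5 and 22.1, 24.5 and 27.1 FPKM in MNC (-0.60, adjusted p = 0.0323). Pcdh1, a protocadherin, fell by 0.86.

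Phldb2, which anchors microtubules near adhesions, was also under the filter, at 1.31, 0.95 and 1.72 FPKM in M5 and 0.86, 0.87 and 0.63 FPKM in MNC. Its groups did not overlap, with M5 higher by 0.37 (two-sided exact permutation p = 0.1, the smallest this design allows). Con was at 0.89 to 1.11 FPKM, above MNC and overlapping M5. Of 14 partners of Phldb2 at the cell cortex 0 were called, and Clasp1 among them differed by -0.24 (adjusted p = 0.122). Of the other assayed genes, Pgk2, a sperm glycolytic kinase, differed by 0.19, Crem, a regulator of spermatid genes, by 0.07, Fscn1, an actin bundler, by -0.19 and Sox9, the Sertoli factor, by -0.01, all with adjusted p of 0.246 or more.

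Among the muscarinic receptors, Chrm4 was the 1 gene above the filter. The M4 receptor couples to Gi, which lowers cAMP. Chrm4 (chr2:91922189-91929835) was at 2.24, 2.05 and 2.29 FPKM in M5 and 4.45, 5.01 and 5.1 FPKM in MNC (-0.87, SE 0.103, limma adjusted p = 0.0153). It was called in 10 of the 16 alternative fits that held it, among them the removal of the GC trend (adjusted p = 0.0385). Con was at 2.75 to 3.09 FPKM, above M5 and below MNC, and M1 and M3 libraries at 2.67 to 4.44 FPKM. Chrm1, Chrm2 and Chrm3 were at or below 0.17, 0.04 and 0.09 FPKM in the 6 libraries. Crat, the most abundant of the 9 cholinergic genes and an enzyme of acetyl transfer to carnitine, was at 295, 364 and 330 FPKM in M5 and 424, 412 and 427 FPKM in MNC (-0.36, adjusted p = 0.0598).

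Of 37 Gq and calcium effectors, the pathway through which M5 signals, 0 were called (5.65% over all genes), with a median of 0.02. Calm2, a calmodulin gene and the most abundant, was at 461, 430 and 398 FPKM in M5 and 385, 366 and 431 FPKM in MNC. Immediate early genes, which respond to such signals within the hour, had 1 of 19 called, Nr4a1, at 13.8, 13.2 and 12.8 FPKM in M5 and 18.5, 23.9 and 26.4 FPKM in MNC (-0.73, adjusted p = 0.0341). On the cAMP side, Prkaca, the catalytic subunit of protein kinase A, was at 46.5, 45.9 and 44.3 FPKM against 61.4, 60.2 and 61.9 FPKM (-0.42, adjusted p = 0.0163). It was 1 of 2 genes called, both lower, among 27 testis kinases and cAMP genes, with Kif17 the other.

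The remaining lists had 0% to 3.85% of members called per direction, against 2.76% higher and 2.89% lower over all genes. Solute carriers had 6 of 232 (2.59%) called lower and 0 higher, with Slc30a3, Slc2a8, Slc29a3 and Slc6a21 at -0.58, -0.46, -0.44 and -0.33 on the log2 scale. Zinc finger genes had 2 of 338 (0.592%) called in each direction, Zfp759 and Zfp706 higher and Zfp574 and Zfp385a lower. Tubulins and kinesins had 2 of 52 (3.85%) called lower, and Tuba1c fell from 75.7, 73.6 and 74.3 FPKM in MNC to 46.3, 49.6 and 51 FPKM in M5 (-0.60, adjusted p = 0.00853), with Con at 39.4 to 56.8 FPKM. Multicopy X and Y spermatid families had 1 of 27 (3.7%) called higher, Slxl1 on the X, at 30.6, 27.3 and 25.2 FPKM against 17.4, 17.6 and 16.6 FPKM (0.66, adjusted p = 0.0181). Histone variants of the testis, a list that does not include H2al1b, had 0 of 23 called, and germ cell RNA binding genes had 1 of 26 (3.85%) called higher, Dazl.

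83 called genes carried no symbol. BGI_novel_G000843 was at 10.6, 19.9 and 4.85 FPKM in M5 and listed at 0 in MNC, and BGI_novel_G001237 was at 68.9, 169 and 207 FPKM against 0, 16.3 and 0 FPKM. BGI_novel_G001312 was listed at 0 in M5 and was at 16.7, 18.7 and 41.4 FPKM in MNC, and BGI_novel_G001161 was listed at 0 in M5 and in Con and was at 11.5, 8.45 and 16 FPKM in MNC.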

How the data were processed

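Poly(A) RNA of whole testis was sequenced, and the authors deposited FPKM values to 2 decimals for 15 libraries. Their methods name SOAPaligner, and the submitters' processing notes name mm10. Counts were not used here, so the count-based test of the study could not be run. Groups follow the titles, also for M5 replicate 2, whose description gives the column name of replicate 1. The extraction text says sperm, the titles testis.

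Values were taken as log2(FPKM + 1) and tested with limma 3.58.1 (lmFit, eBayes with trend) in R 4.3.3, M5 against MNC, without covariates, two-sided, for genes whose mean over 15 libraries was at least 1 FPKM, with Benjamini-Hochberg adjustment over all of them. Every adjusted p is from this fit unless another is named, and differences without a unit are on its log2 scale. In 5 simulated sets of 14514 genes, 69.8% of 200 genes changed by 1 log2 unit were recovered, and 5.2% of calls were on unchanged genes. The simulated noise was independent between genes and held no shift or GC trend shared within a library. These rates therefore need not hold for the calls made here. RefSeq genes of GRCm38.p6, matched by 89.93% of IDs, gave symbols, positions and promoters. GC content and transcript length were those of the longest GENCODE transcript paired with each gene ID.

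The comparison, its members and the lists were chosen with earlier results of these data known. Genes named are the 15 largest called differences per direction with a symbol and no overlap, up to 4 called members per direction and list, the most abundant member of each list, the receptors and genes of assayed proteins, and up to 2 IDs per direction without a symbol. Alternatives were the pseudocount, filters, scaling, GC removal (lowess, span 0.3), Con as the control, all groups in 1 fit, a replicate block and leaving out each library. Some members of the lists are not reported here by name.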

Additional observations from a re-analysis of the deposited data

How the results depend on the processing

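The 820 calls became 3143 with Con as the control, 2424 with all 5 groups in one fit, 479 with no filter, 215 with eBayes without trend, 182 after centring on the median and 104 with the GC trend removed. Leaving out single libraries gave 35 to 946 calls. Same-numbered libraries were not shown to be paired (correlations of their deviations 0.102, 0.177 and -0.052), and a replicate block left 14 genes called. Of the 113 named genes called, 33 of the 108 with known GC remained called with the GC trend removed, 43 of 113 after centring and 8 with the block, all with the same sign. The difference of Chrm5 turned to 0.13 with Con as the control and 0.01 without M5 replicate 2. With Con as the control the sign also turned for Id4 (-0.24), Dazl (-0.01), Actl9 (0.09), Spata3 (0.41), Odf1 (0.45), Kif17 (0.31), Aldoart2 (0.19), Birc2 (-0.13), Rps6 (-0.02) and Tuba1c (0.01), and under quantile normalization for Prm1 (-0.12). The cause was not tested. The sign of the median was kept in 38 of 52 lists with the GC trend removed, 35 without M5 replicate 3 and 33 with Con as the control. Counting depth is unknown, which limits statements on genes under 1 FPKM, the muscarinic receptors among them.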

Other observations

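The families in this paragraph and the next were picked after the called genes were seen, so their counts are descriptions. Over all genes 2.76% were called higher and 2.89% lower. Family counts after removal of the GC trend were not taken. Mitochondrial ribosomal proteins, which translate the genes of the mitochondrial genome, had 5 of 77 called higher and 1 lower. Mrpl32 was at 43.7, 42.1 and 43.7 FPKM in M5 and 28.8, 25.4 and 24.2 FPKM in MNC (limma adjusted p = 0.0122). Of 9 subunits of the CCT chaperonin, which folds actin and tubulin, 3 were called higher (Cct5, Cct6a and Cct8) and 0 lower. Uchl5, a deubiquitinating enzyme bound to the proteasome, was at 46.8, 47 and 44.3 FPKM against 26.2, 27 and 27.3 FPKM (adjusted p = 0.00351).

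Of 13 tubulin tyrosine ligase-like enzymes, which add glutamate or glycine chains to tubulin of sperm tails and cilia, 4 were called lower (Ttll1, Ttll8, Ttll10 and Ttll13) and 0 higher, with a median of -0.23. Agbl4 and Agbl5, carboxypeptidases that remove such chains, were both called lower, and Agbl4 was at 24.4, 24.9 and 21.7 FPKM in M5 and 47.7, 38.2 and 38.4 FPKM in MNC (limma adjusted p = 0.0189). Among 7 RFX factors, Rfx1, Rfx2 and Rfx4 were called lower (2.89% over all genes). Rfx2, which is needed for spermatid development, was at 89.5, 90.1 and 83 FPKM in M5 and 105, 111 and 116 FPKM in MNC (-0.34, adjusted p = 0.0364), while Rfx3 was at 5.15 to 5.88 FPKM in M5 and 5.31 to 5.69 FPKM in MNC. Sox30, a further factor of round spermatids, was at 77.8, 83.5 and 77.2 FPKM against 99.4, 114 and 115 FPKM (-0.45, adjusted p = 0.0291).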
